A study of Mus musculus with 8 samples.

Results

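Apolipoproteins and the proteins that build and mature lipoproteins were followed in mouse liver as 10 genes, chosen by symbol: Apob, Mttp, Apoa1, Apoa2, Apoa4, Apoa5, Apoc1, Apoc3, Apoe and Lcat. All 10 were among the 16133 genes of the deposited comparison, and all 10 were among the 14257 with an adjusted p. The KO mice carried the genotype METTL14Alb, a liver deletion of Mettl14, and the WT mice carried the floxed allele METTL14f/f. Both genotypes had been injected with tunicamycin, which blocks N-linked glycosylation and stresses the endoplasmic reticulum, at 2 mg/kg, and the liver was taken at 24 h. Polyadenylated RNA was sequenced before (input) and after (IP) enrichment with an m6A antibody, in 2 libraries for each of KO input, KO IP, WT input and WT IP. Age, sex and the Cre driver are not spelled out in the labels, and no group without tunicamycin was analysed here.

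Apolipoproteins are the protein coat of plasma lipoproteins. In the hepatocyte, microsomal triglyceride transfer protein (Mttp) loads lipid onto the growing apolipoprotein B chain in the endoplasmic reticulum, and the particle leaves as very low density lipoprotein. Apolipoproteins A-I and A-II instead form high density lipoprotein (HDL), on which the enzyme Lcat turns free cholesterol into cholesteryl ester. The small C and E apolipoproteins move between particles and set how fast lipase and liver receptors clear them. METTL14 works with METTL3 in the complex that places N6-methyladenosine (m6A) on mRNA.

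Levels below are normalized counts, that is, reads divided by the size factor of the library, and a change is log2 of KO over WT. The comparison's header names no numerator, and the reading as KO over WT rests on the peak lists. Of 347 genes with a value above 2 and a mean of at least 100, the KO list alone named 156 and the WT list alone 0. Of 403 genes below -2 with such a mean, the KO list alone named 30 and the WT list alone 46. The KO list is the longer, and it alone named 19.4% of all table genes. Reads of the 4 input libraries (KO A and KO B, and WT A and WT B) could be worked out from the long decimals of the deposited means for 16084 genes, and for 7 of the 10 studied here. For these 7 the deposited change was also used to choose the reads. The library names A and B are not the replicate numbers of the labels. Total depth came to an estimated 12395224 to 16912420 reads per input library. The labels do not say that libraries of 1 genotype came from separate mice, so p-values cover only the variation seen among these libraries. Mettl14, the targeted gene, had 64.6 and 62.0 normalized counts in the KO libraries, against 79.8 and 99.7 in the WT libraries, and its change of -0.50 ± 0.41 (SE) in the authors' deposited table did not pass the test (adjusted p = 0.342).

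Most of the apolipoprotein genes had less mRNA in KO liver. Of the 10 genes 7 fell in the authors' deposited table at an adjusted p under 0.05 (Apoa2, Lcat, Apoc3, Apoa5, Apoc1, Mttp and Apoe), against 22.2% of all tested genes. Apoa1 rose, against 20.4% of all tested genes called higher, and Apob and Apoa4 did not pass the test. The median change of the 10 genes was -1.69, against 0.046 for all tested genes and -0.65 for the 2184 tested genes with a mean of at least 1000 normalized counts. All 10 genes are that abundant, and among such genes 58.4% were called lower and 11% higher, so 7 of 10 lies near what abundant liver mRNAs showed as a whole. In the 7 genes with recovered libraries both KO values lay below both WT values in 7 of 7, which 39.5% of all recovered genes with a mean of at least 10 also showed. In limma on the recovered counts 7 of 7 were lower, against 24.5% of all genes, and none was higher, against 25.2%. Apoa1, which rose, and Apob were not recovered, so limma could not have called Apoa1 higher. The reads of the 7 genes were also chosen to match the deposited change, so limma is no separate test of these falls. The same limits hold for the library overlap. With any 1 library left out, the limma changes of these 7 genes stayed negative. They ran from -0.68 (Apoa4 without WT B) to -2.82 (Apoa2 without WT B). Their calls were lost without KO A or without KO B, when only 1 KO library is left. All 7 falls in the authors' deposited table were at least 2-fold, which 12.6% of all tested genes showed, and 3 of them at least 4-fold (Apoa2, Lcat and Apoc3). The shares for library overlap, limma and 2-fold falls were not computed for abundant genes alone. The 10 genes together took 2.42% of the summed normalized counts in KO and 2.92% in WT.

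**Figure D1:**
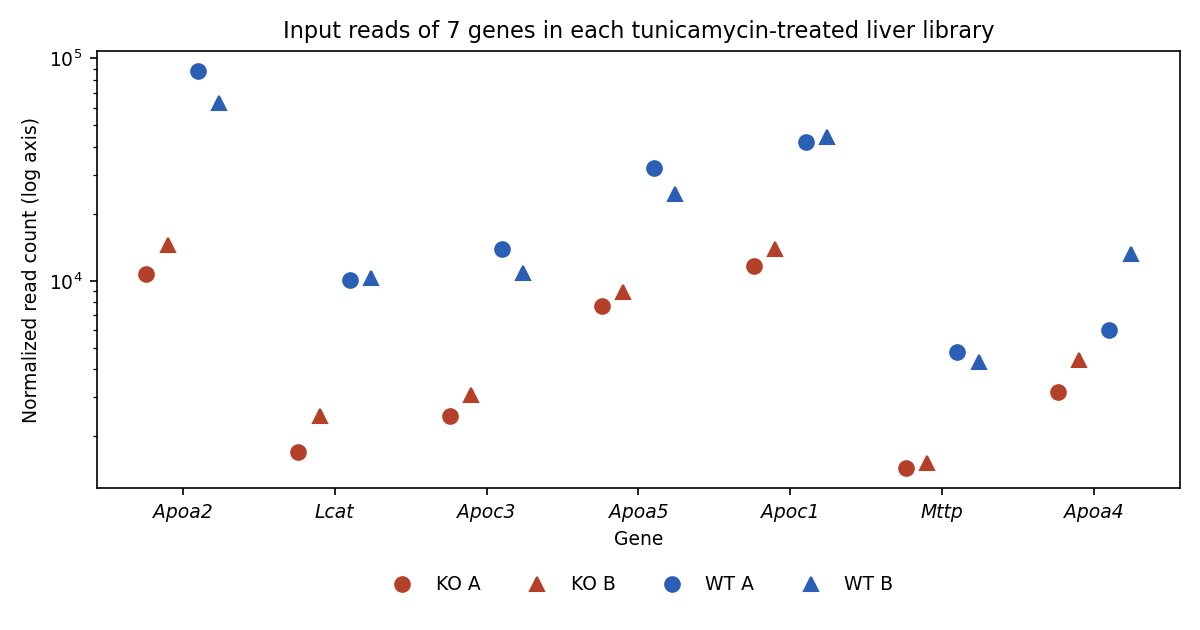
Normalized counts (log axis) of the 7 genes with recovered libraries, KO libraries left of WT libraries within each gene, 1 point per library. The KO points lie below the WT points in all 7 genes, and the WT libraries lie farthest apart for Apoa4, at 5985 and 13203.

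Hepatocyte markers moved with these genes. All 13 of a list of 13 hepatocyte markers fell in the authors' deposited table, with values between -3.56 and -0.74 (median -2.22). Of all tested genes 22.2% were called lower there, and of those with a mean of at least 1000, which all 13 have, 58.4%. The summed level of the 13 was 577124 in KO and 1757037 in WT. Cholangiocyte markers went the other way: 6 of 7 rose in the authors' deposited table, against 20.4% of all tested genes. Their median was 3.54, and their summed level was 3884 in KO and 739 in WT. Of 7 stellate cell markers 4 rose in the authors' deposited table, against the same 20.4%. The summed level of the 7 was 8097 in KO and 3939 in WT. Without Col1a1 and Col3a1 the other 5 summed to 4432 in KO and 3716 in WT. In bulk liver, fewer cells of a type and less RNA per cell cannot be told apart, and the part of the cell make-up in the changes of the apolipoprotein genes was not tested.

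The scale of the comparison bears on every value. Scaled to equal total counts, every change moves up by 0.82, and the median of all tested genes becomes 0.87. On that scale 6 of the 10 genes were lower, against 7.36% of all tested genes, and 2 were higher, against 51.2%. The shares among abundant genes, as all 10 are, were not computed on that scale. Apoa2, Apoa5, Apoc1, Apoc3, Mttp and Lcat stayed lower on that scale. Apoe no longer passed, at -0.34 (adjusted p = 0.0700, Wald test with the deposited SE), and Apob changed sign, as given below. Of the marker lists above, 10 of 13 hepatocyte markers were lower on that scale and 0 higher. Of the cholangiocyte markers 6 of 7 were higher, and of the stellate cell markers 7 of 7.

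Apob (chromosome 12, 7977629 to 8016839, plus strand, mm10) encodes the structural protein of very low density lipoprotein and, in the gut, of chylomicrons. Its mean was 43025 normalized counts in KO and 55782 in WT, and its single libraries were not recovered. The change of -0.37 ± 0.18 (SE) in the authors' deposited table did not pass the test (adjusted p = 0.0781), and its 95% interval ran from -0.72 to -0.025. With total-count scaling Apob was instead higher, at 0.45 (adjusted p = 0.0237, Wald test with the deposited SE). Its direction therefore depends on the scale.

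Mttp (chromosome 3, 138089855 to 138143418, minus strand) encodes the lipid-loading subunit of the transfer protein that Apob needs. It had 1434 and 1513 normalized counts in the KO libraries, against 4795 and 4323 in the WT libraries. The KO libraries lay close together, and both were under the lower WT library. In the authors' deposited table Mttp fell by 1.63 ± 0.18 (SE, adjusted p = 3.89e-18), so the transfer protein's mRNA was 3.09-fold lower in KO. No test of the difference between the changes of Mttp and Apob was made.

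Apoa1 (chromosome 9, 46228630 to 46230469, plus strand), the main protein of HDL and the activator of Lcat, was the 1 gene of the 10 that rose. Its mean was 45463 normalized counts in KO and 29271 in WT, a 1.55-fold difference, and its single libraries were not recovered. In the authors' deposited table the change was 0.64 ± 0.25 (SE, adjusted p = 0.0275). It was 1.46 with total-count scaling (adjusted p = 2.95e-08, Wald test with the deposited SE). That scaling adds 0.82 to every change, so it could not have turned a rise into a fall. The median of all tested genes is 0.87 on it.

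Apoa2 (chromosome 1, 171221564 to 171226379, plus strand) encodes the second most abundant protein of HDL, and it fell furthest of the 10. It had 10701 and 14514 normalized counts in the KO libraries, against 88050 and 62700 in the WT libraries. The groups lay far apart, with the lower WT library above the higher KO library by several fold. In the authors' deposited table Apoa2 fell by 2.58 ± 0.22 (SE, adjusted p = 3.16e-30), a 5.98-fold lower mean in KO. The 2 main HDL apolipoproteins thus moved in opposite directions in the same libraries.

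Lcat (chromosome 8, 105939551 to 105943402, minus strand) encodes the enzyme that esterifies cholesterol on HDL. Its levels were 1697 and 2458 normalized counts in the KO libraries, against 10108 and 10248 in the WT libraries. The WT libraries nearly coincided, and both KO libraries lay far under them. The change was -2.29 ± 0.21 (SE, adjusted p = 1.25e-26) in the authors' deposited table, a 4.90-fold lower mean in KO.

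Apoa5 (chromosome 9, 46268608 to 46271921, plus strand) encodes a liver protein that promotes lipolysis of triglyceride by lipoprotein lipase. It had 7684 and 8949 normalized counts in the KO libraries, against 32030 and 24574 in the WT libraries, with no overlap. In the authors' deposited table Apoa5 fell by 1.77 ± 0.20 (SE, adjusted p = 3.31e-18). Apoc3 (chromosome 9, 46233050 to 46235636, minus strand), whose protein inhibits lipoprotein lipase and the uptake of remnants, had 2460 and 3062 normalized counts in the KO libraries, against 13860 and 10802 in the WT libraries. Its fall in the authors' deposited table was by 2.16 ± 0.20 (SE, adjusted p = 3.46e-25). An activator and an inhibitor of the same lipase thus both fell, with no overlap of the libraries in either gene.

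Apoa4 (chromosome 9, 46240844 to 46243458, plus strand), an apolipoprotein of chylomicrons and HDL, had 3157 and 4426 normalized counts in the KO libraries, against 5985 and 13203 in the WT libraries. The groups did not overlap, but WT B was 2.21-fold above WT A, the widest gap within a genotype among the 7 recovered genes. The change of -1.34 ± 0.59 (SE) in the authors' deposited table did not pass the test (adjusted p = 0.0555). In limma on the recovered counts it was -1.25 and did pass (adjusted p = 0.0236). It was -1.82 without WT A and -0.68 without WT B, so 1 library sets much of the size.

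Apoa1, Apoc3, Apoa4 and Apoa5 are neighbours on chromosome 9, within 43292 bases. Their changes in the authors' deposited table, in the order of the cluster, were 0.64, -2.16, -1.34 and -1.77. Genes of 1 cluster therefore ranged from a rise to a more than 4-fold fall. Apoc1 and Apoe lie side by side on chromosome 7.

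Apoc1 (chromosome 7, 19689480 to 19692659, minus strand), whose protein slows the clearance of remnants, had 11630 and 13893 normalized counts in the KO libraries, against 42205 and 44250 in the WT libraries. Both genotypes were tight, and the groups were well apart. In the authors' deposited table Apoc1 fell by 1.76 ± 0.18 (SE, adjusted p = 1.35e-21). Apoe (chromosome 7, 19696244 to 19701310, minus strand), the ligand by which liver receptors take up remnants, had a mean of 116549 normalized counts in KO and 261105 in WT. Its single libraries lie above the range that could be searched. Apoe fell by 1.16 ± 0.17 (SE, adjusted p = 8.78e-11) in the authors' deposited table, the smallest fall among the 7 called genes. Macrophages also make Apoe. Of 12 macrophage and Kupffer cell markers 1 rose (Cd68) and 2 fell in the authors' deposited table, against 20.4% and 22.2% of all tested genes. The summed level of the 12 was 8085 in KO and 7602 in WT. Without Cd68 the other 11 summed to 5740 in KO and 7415 in WT, and all 11 had negative changes in that table, most of which did not pass the test. With total-count scaling 5 of the 12 were higher and 0 lower, against 51.2% and 7.36% of all tested genes. The median of the 12 was then 0.61, where that of all tested genes was 0.87. The part of these cells in the level of Apoe was not tested.

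**Figure D2:**
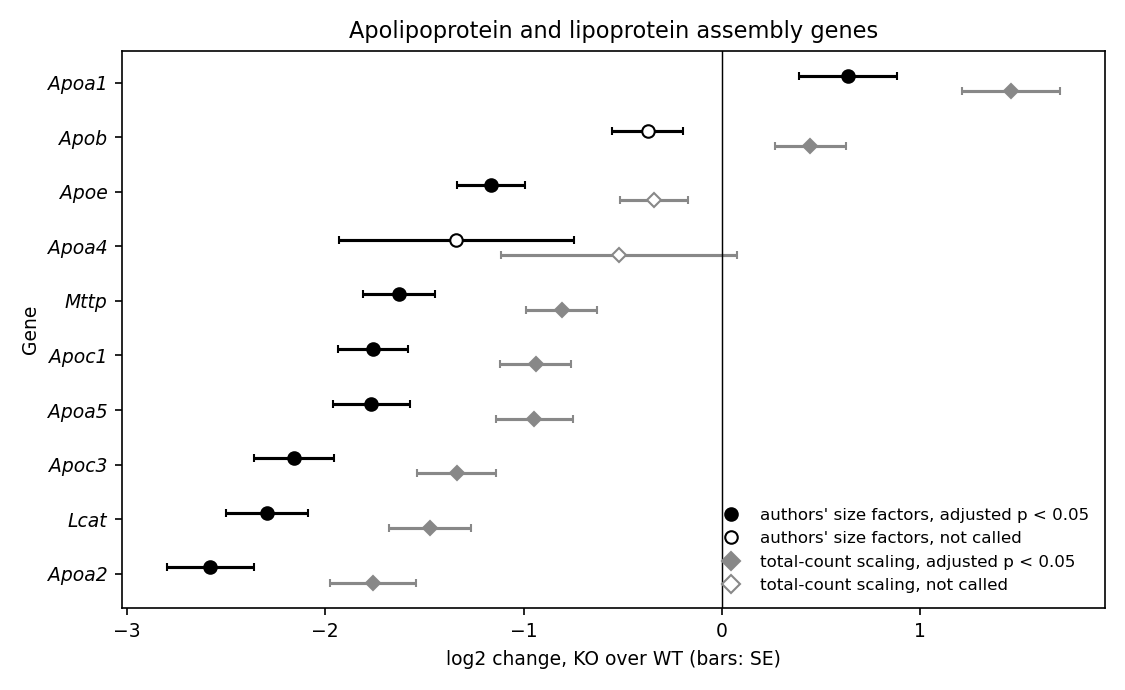
Change of each of the 10 genes (log2 of KO over WT, deposited values as circles, total-count scaling as diamonds, bars the deposited SE, filled where the adjusted p was under 0.05). Apoa1 lies above 0 on both scales, Apob and Apoa4 have no call in the deposited table, and Apob is the 1 gene whose value crosses 0 between the scales.

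Within the KO group, KO B was above KO A in 7 of the 7 recovered genes, by 1.06- to 1.45-fold. Of the hepatocyte markers, 5 had recovered libraries, and KO B was above KO A in 5 of 5, by 1.08- to 1.46-fold. KO B was above KO A in 54.1% of all recovered genes with a mean of at least 10, and in 72.7% of those with a mean of at least 1000. Markers of other cells went the other way: KO B was below KO A in 7 of 7 stellate, 11 of 12 macrophage and Kupffer, 6 of 7 cholangiocyte and 5 of 6 endothelial cell markers. The part of this difference in the apolipoprotein levels was not tested. In WT, WT B was below WT A in 4 of the 7 genes.

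A list of 63 further genes of lipoprotein biology, in 7 roles, gave the setting. Of the 61 with an adjusted p, 7 rose and 38 fell in the authors' deposited table, where 20.4% of all tested genes were higher and 22.2% lower, and the median change was -0.98. With total-count scaling the same list had 20 higher and 22 lower genes, where 51.2% of all tested genes were higher and 7.36% lower, and its median was -0.16. Of 60 with recovered libraries, 40 had both KO libraries below both WT libraries, 10 had them above, and 10 overlapped. Of all recovered genes with a mean of at least 10, 39.5% had both KO libraries below both WT libraries. No such share was computed for KO above WT, or for abundant genes alone.

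Of 7 other apolipoproteins 6 had an adjusted p, all but the barely detected Apod, and 6 of 6 fell on both scales; in the authors' deposited table the median was -2.36. Apoh, which binds phospholipid, changed by -2.52 there. Apom, the carrier of sphingosine-1-phosphate on HDL, changed by -2.65 in the authors' deposited table, and Apon by -2.87. In assembly and exit from the endoplasmic reticulum 1 of 14 rose and 10 fell in the authors' deposited table, and the median was -1.15; with total-count scaling 2 were higher and 5 lower. Sar1b, the GTPase of the coat that carries lipoproteins out of the endoplasmic reticulum, had 340 and 403 normalized counts in the KO libraries, against 1941 and 1588 in the WT libraries, a change of -2.25 in the authors' deposited table. Cideb, a lipid droplet protein needed for lipidation of the particle, changed by -1.91 in the authors' deposited table, and Smlr1 by -2.32. The exception was Tm6sf2, named after its value was seen, a protein of lipoprotein lipidation that rose by 1.65 in the authors' deposited table. Of the ApoB mRNA editing genes 1 of 3 fell (with total-count scaling 2 were higher instead), the editing cofactor A1cf, with a change of -0.81 by the authors' deposited table.

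HDL formation and remodelling had 9 genes, of which 5 fell and 4 did not pass in the authors' deposited table, while 4 were higher and 3 lower with total-count scaling. Pon1, an HDL-bound esterase, was at -2.19 in the authors' deposited table. Pltp, which transfers phospholipid to HDL, was at -1.84 in the authors' deposited table, and the phospholipase Gpld1 was at -1.18. Around lipoprotein lipase 1 of 5 genes rose and 3 fell in the authors' deposited table, and 2 were higher and 1 lower with total-count scaling. The lipase inhibitor Angptl4 was at -1.12 and the lipase maturation factor Lmf1 at -1.08 in the authors' deposited table. Lpl itself, named after its value was seen, was higher, with 1046 and 666 normalized counts in the KO libraries, against 193 and 386 in the WT libraries, a change of 1.57 in the authors' deposited table.

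Receptors and clearance had 9 genes, of which 4 were higher and 3 lower in the authors' deposited table, and 6 were higher and 1 lower with total-count scaling. Vldlr, a receptor for triglyceride-rich particles, had 182 and 167 normalized counts in the KO libraries, against 21.6 and 45.8 in the WT libraries. The groups did not overlap, and Vldlr rose by 2.39 in the authors' deposited table. Of 15 transcriptional regulators 1 rose (Srebf1, named after its value was seen, 0.96) and 10 fell in the authors' deposited table, and 4 were higher and 6 lower with total-count scaling. Ppara and Cebpa, which drive lipid and hepatocyte genes, were at -2.52 and -2.44, and Hnf4a, a main hepatocyte factor for apolipoprotein genes, was at -1.44 in the authors' deposited table.

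**Figure D3:**
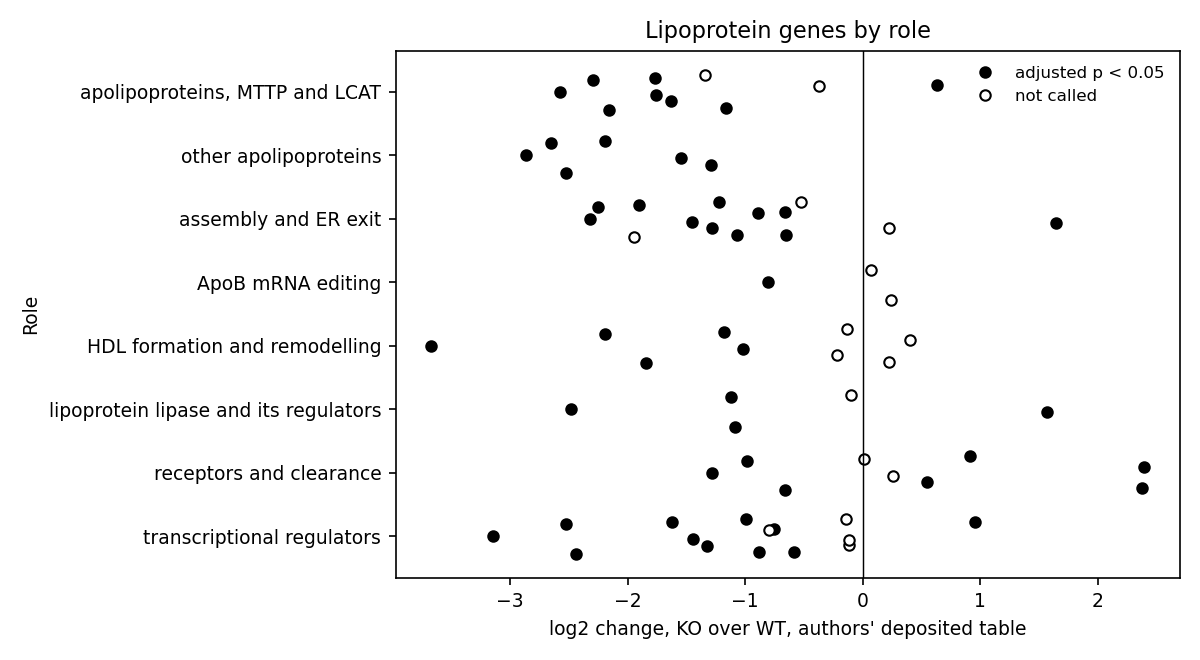
Change of each gene in the authors' deposited table (log2 of KO over WT), 1 point per gene with an adjusted p, by role. The 6 tested other apolipoproteins lie below 0, while receptors and clearance spread to both sides, with Vldlr at 2.39.

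The second set of measurements was the m6A peaks. The authors deposited 1 peak list per genotype, with an enrichment of IP over input for each peak; a list gives 1 value per peak with no replicates, so peaks are described and not tested. Coordinates are mm10, 1-based, and each peak may consist of several blocks. Peaks are more readily called where an mRNA is abundant, and how deeply the IP libraries were sequenced is not known here. The KO list held 12290 peaks and the WT list 5586.

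All 10 genes had peaks in the KO list, against 36.3% of all table genes and 90.2% of those with a mean of at least 1000, so this is near what abundant genes show. In the WT list 8 of 10 did, against 18.5% of all genes and 70% of abundant ones; Apoa2 and Mttp had none. That leaves 8 genes with peaks in both lists, against 16.9% of all and 68% of abundant genes, and 2 with peaks in the KO list alone, against 19.4% and 22.1%. In all there were 36 peaks in the KO list and 28 in the WT list. Of the 36 KO peaks 19 (52.8%) shared at least 1 base of a block with a WT peak, against 28.3% of all KO peaks, and 23 of the 28 WT peaks (82.1%) shared a base with a KO peak, against 75.5%. Enrichment was modest: it ran from 1.21 to 69.0 (median 3.72) in the KO list and 0.98 to 15.3 (median 3.40) in the WT list, whereas the medians of the whole lists were 13.1 and 24.2. Among the 23 overlapping pairs, 13 had the higher value in KO and 10 in WT, with a median KO over WT ratio of 1.09, against 24.9% higher in KO and a median ratio of 0.507 over all 4282 pairs of the lists. The 23 pairs came from 19 KO peaks, so some KO values enter more than 1 pair. Apob gave the most pairs, with 9 of its WT peaks, so the pairs are not separate observations of the 10 genes. More than 1 block was found in 10 of the 36 KO peaks, against 29.2% of all KO peaks, and in 5 of the 28 WT peaks, against 20.5%. The enrichment covers the whole peak, so the windows compared differ in length.

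Apob carried the most peaks, 16 in the KO list and 10 in the WT list. No gene had more peaks than Apob in the KO list, and 1 gene had more in the WT list. The peak at its start (7977677, the RefSeq start) had an enrichment of 69.0 in the KO list, over 251 bases in 3 blocks to 7979278, and of 9.10 in the WT list, over the 50 bases to 7977726. The other peaks lay 28477 to 39112 bases downstream in the KO list and 28776 to 34708 bases downstream in the WT list. The KO values there were 1.97 to 8.38, at the lowest for the peak that ends 50 bases before the gene end (8016640 to 8016789) and the highest at 8008347 to 8008396, which has no WT peak. The WT values there were 2.23 (8011588 to 8011637, with no KO peak) to 11.9 (8009145 to 8009294). Of the Apob peaks, 8 of 16 in the KO list overlapped a WT peak and 9 of 10 in the WT list overlapped a KO peak. At 8010491 to 8010590, where both lists called the same 100 bases, the values were 7.46 in KO and 6.98 in WT. Beyond 8012385, where the last WT peak ends, the KO list alone had separate peaks, at 8012535 to 8012784 (3.31), 8015294 to 8015493 (2.70), 8015943 to 8016041 (3.11) and the terminal peak named above.

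**Figure D4:**
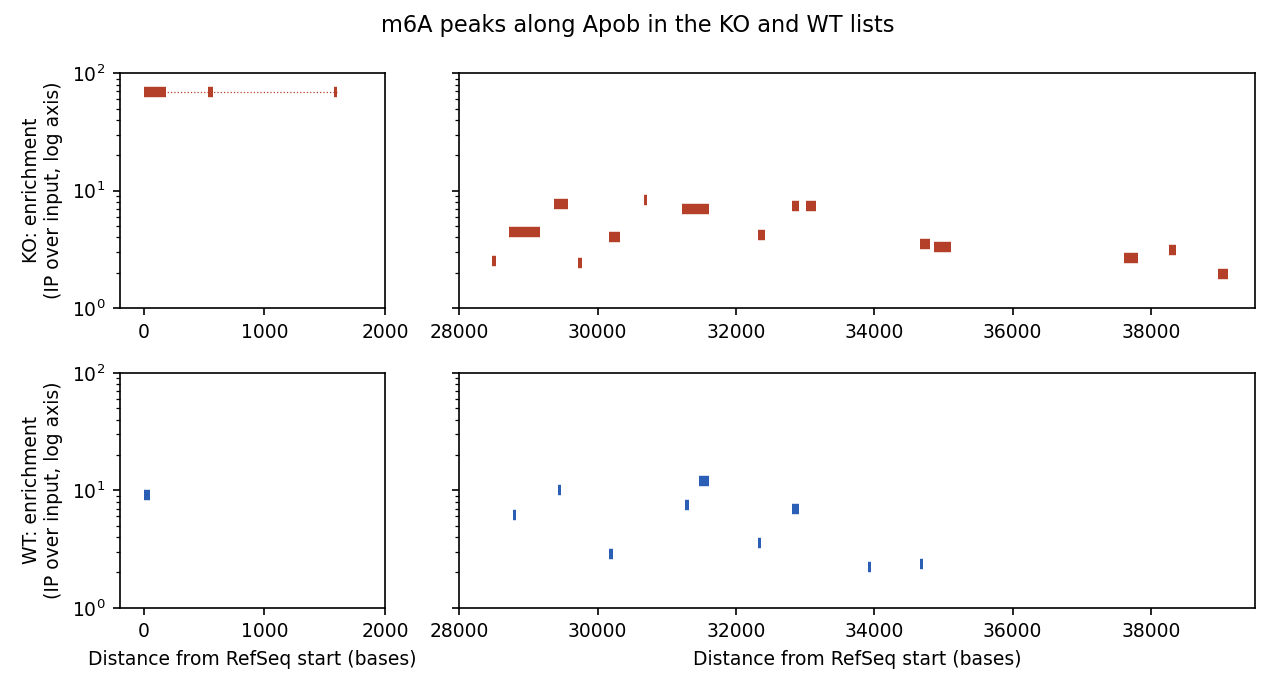
Peaks of Apob by distance from the RefSeq start (bases), with the enrichment of IP over input on a log axis, KO above WT; each mark is a block, a dotted line joins blocks of 1 peak, and the stretch without peaks is left out. The start peak reached 69.0 in KO and 9.10 in WT, and the other peaks stand toward the end of the gene.

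Over all genes with sequence available around a RefSeq start, 5.01% of 9441 KO peaks and 4.32% of 4353 WT peaks began exactly there. Of the 36 KO peaks 4 did, in Apob, Lcat, Apoa4 and Apoa5, and of the 28 WT peaks 2 did, in Apob and Lcat. The sequences around these starts are shown because the peak's edge is the first transcribed base; the 70 bases before it are in lower case and the first 30 transcribed bases in capitals, 5′ to 3′ on the gene's strand (RefSeq, GRCm38.p6, the assembly also named mm10). They lie at chr12:7977607-7977706, chr8:105943373-105943472, chr9:46240774-46240873 and chr9:46268538-46268637.
Apob: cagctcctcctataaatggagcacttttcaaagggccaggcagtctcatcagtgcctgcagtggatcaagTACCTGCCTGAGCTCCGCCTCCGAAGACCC
Lcat: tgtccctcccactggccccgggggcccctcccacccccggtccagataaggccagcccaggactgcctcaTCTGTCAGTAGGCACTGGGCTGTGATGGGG
Apoa4: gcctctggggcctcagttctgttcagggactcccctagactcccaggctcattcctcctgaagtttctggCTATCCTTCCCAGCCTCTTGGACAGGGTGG
Apoa5: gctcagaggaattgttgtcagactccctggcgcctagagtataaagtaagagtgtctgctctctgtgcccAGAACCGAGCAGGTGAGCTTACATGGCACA
The letters TATAAA, searched on the transcribed strand within the 70 bases before the start, begin at -31 in Apoa5 and at -60 in Apob, whose gene record begins upstream of this start, at 7977629, and 3.14% of 32851 such windows hold them. GGAC, a form of the m6A consensus, occurs within the first 50 transcribed bases of Apoa4 and of none of the other 3, and 18.9% of windows hold it. Other forms of the consensus were not counted, so a window without GGAC may still hold another form. A match is a description of the letters only. Windows were found for 8 of the 10 genes, all but Apoc1 and Apoc3, whose peaks are nevertheless among the 36 and 28.

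At the same starts the lists differed by gene. In Lcat the KO peak ran from 105942470 to the start at 105943402 with 9.59, and the WT list split this stretch into a start peak of 15.3 (105943304 to 105943402) and a peak of 4.57 (105942470 to 105943256). Lcat had further KO peaks of 4.86 (105939600 to 105939697) and 2.85 (105939745 to 105939794) near the gene's end, with no WT peak. In Apoa5 the KO start peak had 5.93 (46268608 to 46269796) and no WT peak. Its other KO peaks had 1.96 (46270191 to 46270290), 2.06 (46270586 to 46270635) and 3.88 (46271228 to 46271376), and its WT peaks had 3.24 (46270093 to 46270290), 1.84 (46270340 to 46270438) and 2.00 (46270636 to 46270685). The first of each shared 100 bases, and the KO peak at 46270635 and the WT peak at 46270636 lie side by side without sharing a base.

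In Apoa4 the KO start peak had 3.18 (46240844 to 46240942) and no WT peak. A KO peak of 9.77 (46241089 to 46242283) overlapped a WT peak of 8.41 (46241138 to 46241187). A KO peak of 1.86 (46242479 to 46242674) shared 1 base with a WT peak of 4.33 (46242674 to 46242772). The upstream pair thus had values within 1.16-fold of each other, and the downstream pair was higher in WT over nearly separate windows.

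Apoa1 had its higher value at opposite ends in the lists. Toward the start the KO peak had 5.68 (46228679 to 46229877), against WT peaks of 1.41 (46228729 to 46228979) and 1.34 (46229194 to 46229243). Toward the end the KO peak had 1.21 (46230074 to 46230123), against 6.50 in WT (46230025 to 46230123). These are ratios of 4.03 and 4.25 near the start, and 0.187 near the end, of KO over WT.

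Apoe had 4 KO peaks and 5 WT peaks. Its start was taken as 19699188, the RefSeq start nearest to the most upstream peak. The gene record begins upstream of that, at 19701310. Nearest this start the values were 5.69 in KO (19699040 to 19699138) and 2.77 in WT (19699089 to 19699138). A KO peak of 2.60 (19697511 to 19698348) overlapped WT peaks of 1.35 (19697511 to 19697560) and 0.98 (19697610 to 19698348), the last with an authors' p of 0.877. Toward the end the values were 1.86 in KO (19696938 to 19697086) and 1.70 in WT (19696839 to 19697086). The remaining peaks, at 1.78 in KO (19696690 to 19696788) and 3.62 in WT (19696541 to 19696640), did not overlap.

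Apoc1 had a KO peak of 2.03 (19691914 to 19692476) and a WT peak of 2.24 (19689617 to 19692476), and a second WT peak of 2.24 (19692518 to 19692567) without a KO partner. Apoc3 had 1 peak in each list, of 2.21 in KO (46234421 to 46235265) and 4.54 in WT (46234471 to 46235215). The genes without a WT peak were Apoa2, with a KO peak of 6.20 (171225082 to 171225789, 3 blocks), and Mttp, with a KO peak of 31.5 (138125138 to 138131330, 2 blocks of 200 bases in all). Both were lower in KO input RNA, by 5.98- and 3.09-fold.

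**Figure D5:**
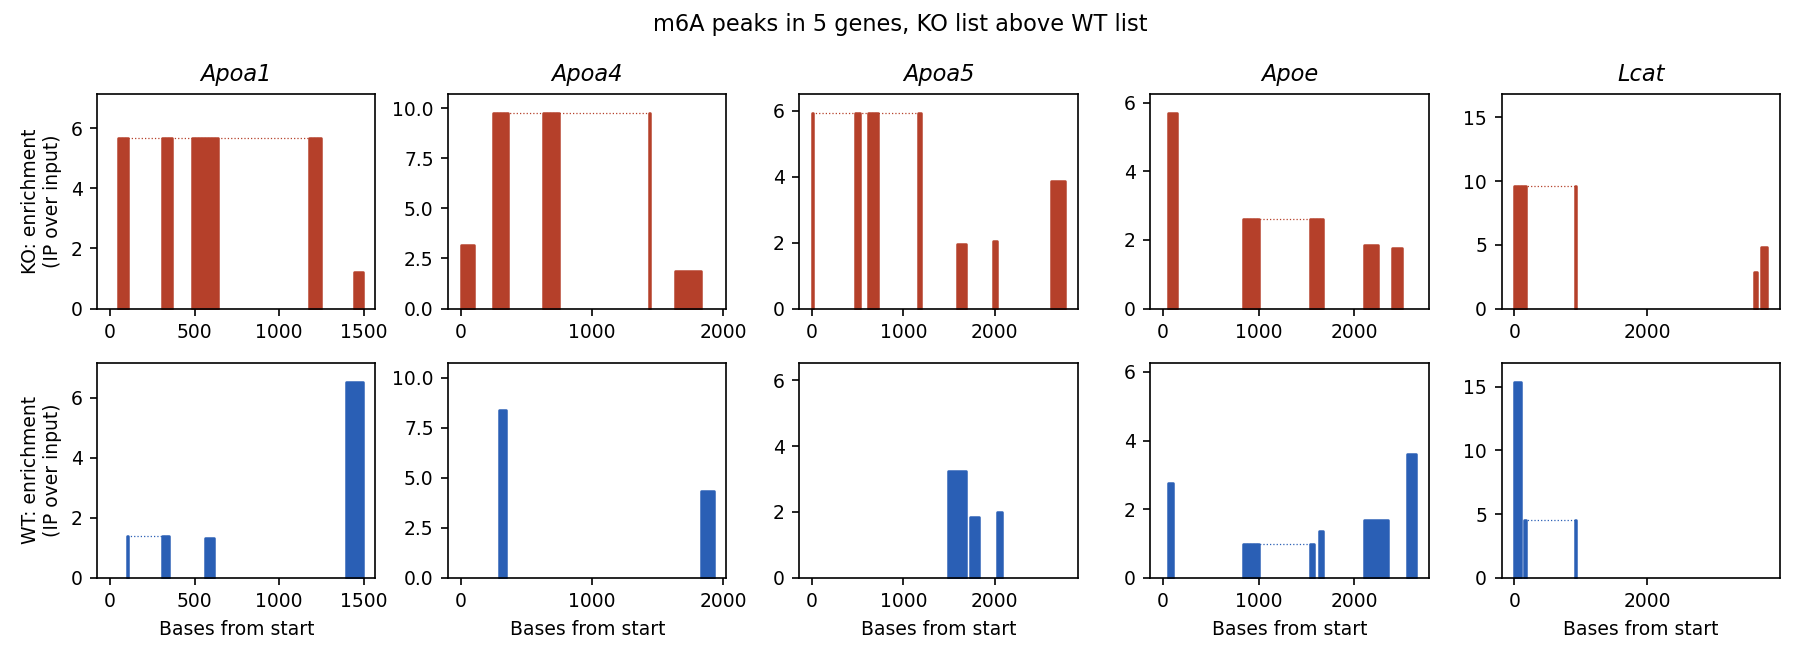
Peaks of Apoa1, Apoa4, Apoa5, Apoe and Lcat by distance (bases) from the RefSeq start nearest to the gene's most upstream peak. Enrichment is IP over input, with KO above WT. Each bar is a block, and a dotted line joins blocks of 1 peak. The Apoa1 bars near the start are higher in KO (5.68) and those near the end higher in WT (6.50).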

How the data were processed

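Liver RNA was sequenced as 8 libraries, input and m6A IP, 2 per genotype and kind. Reads were aligned to mm10 with HISAT2 2.1.0 and compared with DESeq2 1.18.1, per the submitters' processing notes; the read counter, the annotation and the peak caller are not stated there. For the input libraries the authors deposited a mean (a signal, counts divided by size factors), log2 change with SE, a Wald score, a p-value and an adjusted p-value. They also deposited 1 peak list per genotype with an enrichment ratio and a p-value per peak.

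Read counts of single libraries were recovered here from the digits of the deposited means (size factors 1.25, 1.18, 0.927 and 0.743) for 99.7% of genes. Folds refitted for 1337 genes of low mean, recovered without the deposited fold, differed from it by at most 0.00486 log2. The 7 recovered genes studied here have higher means, and their reads were chosen to match the deposited fold. That check does not cover them, and limma on them is not independent of the deposited change. Apoa1, Apob and Apoe were not recovered. The recovered normalized counts, as log2 with a pseudocount of 1, were compared with limma 3.58.1 (trend on), and both steps were tested on simulated data. Overlaps were found with bedtools 2.31.1 on peak blocks, from 1 shared base. Alternatives were other thresholds, scalings, limma and leaving out each library.

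All 10 genes and, per role, the 3 called genes with the smallest adjusted p are named, and per marker list at most 2. Some genes that this rule names are not reported here. The genes and lists were chosen with earlier results of these data known.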

Additional observations from a re-analysis of the deposited data

How the results depend on the processing

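Lower genes numbered 7 with an adjusted p under 0.01, a 2-fold minimum, no filter on low counts and median centring, and 6 with total-count scaling. Limma also called 7 of the 7 recovered, which include Apoa4 and not Apoe. The 1 higher gene, Apoa1, was not called at an adjusted p under 0.01 or with a 2-fold minimum, each giving 0, and total-count scaling gave 2. Limma gave 0, since Apoa1 was not recovered. Total-count scaling turned Apob to 0.45. The wider list had 20 higher and 22 lower genes with total-count scaling, and 4 higher with a 2-fold minimum. Leaving out 1 library in limma gave 0 to 7 lower of the 7 recovered genes and 0 to 0 higher, the last because Apoa1 was in none of these fits, and 0 to 7 higher and 0 to 37 lower genes of the wider list. For lower genes and for the wider list the 0 values came without KO A or without KO B, when the spread is estimated from the WT libraries alone; the lone KO library is then assumed to vary like them. The changes themselves kept their sign in these fits. KO peaks overlapping a WT peak numbered 12, not 19, when both enrichments had to be at least 2 times the lowest of their list. That setting can only remove pairs with a low enrichment in either list. Of all alternative values computed, 74 were rated the same, that is, a change kept direction and call or a count stayed within 1.5 times. Of the rest, 3 changes gained a call, 13 lost one, 18 counts moved by over 1.5 times and 1 change reversed. No paired analysis was possible because the recovered libraries carry no replicate number. Depth of the IP libraries is unknown, which limits what a missing peak shows.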
